A study of Mus musculus with 73 samples.

Results

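The MHC class II genes measured here were Cd74, H2-Aa, H2-DMa and Ciita, 4 of the 6777 genes with a value on arrays hybridised against a reference RNA and 4 of the 5768 genes with a value on arrays of mammary tumor against normal gland. They were taken by gene symbol, from 4 of 9596 array features, 1 feature each. Cd74 is encoded at chr18:60803849-60812652, H2-Aa at chr17:34282744-34287823, H2-DMa at chr17:34119693-34139101 and Ciita at chr16:10480014-10531064 (GRCm38.p6, from the RefSeq annotation). Each had a value on all 35 reference arrays, and on the 38 direct arrays Ciita lacked 1 value.

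The study profiled tumors of mice that carry SV40 T/t-antigen, the early region of the simian virus whose large T protein inactivates p53 and Rb, and normal tissues of wild-type mice, on 2-colour cDNA arrays of total RNA. Against Stratagene Universal Reference RNA, prostate tumors (n = 5) and seminal vesicle tumors (n = 6) came from PB/SV40 T/t-antigen (TRAMP) mice, whose transgene is driven by the probasin promoter, with normal prostate (n = 4) and normal seminal vesicle (n = 4), all C57BL/6. Mammary tumors (n = 4) came from C3(1)/SV40 T/t-antigen mice and lung tumors (n = 4) from CC10/SV40 T/t-antigen mice, in which a club cell promoter drives the transgene, with normal mammary gland (n = 4) and normal lung (n = 4), all FVB. The direct arrays set mammary tumors against wild-type normal mammary gland of the same strain: p53-/-;transplant (n = 5, Balb/c), p53fp/fp;WAP-cre (n = 4) and Brca1 Co/Co;MMTV-cre;p53 (n = 5), both C57BL6/129sv, and 5 models in FVB mice. These were MMTV-PyMT, MMTV-ras, MMTV-her2/neu and C3(1)/SV40 T/t-antigen (n = 5 each) and MMTV-myc (n = 4). The MMTV and WAP promoters act mainly in mammary epithelium, and the transplanted p53-/- tissue grew in a host whose own cells were present. Ages are not given in the sources used here. Strain and location cannot be told apart between the C57BL/6 pair and the FVB pair of sites.

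MHC class II molecules display peptides from endosomes to CD4 T cells. Dendritic cells, B cells and macrophages are their main carriers, and interferon gamma induces them in many other cells. H2-Aa is the alpha chain of the mouse A molecule. Cd74, the invariant chain, occupies the peptide groove and guides the complex to endosomes, where H2-DMa, the alpha chain of the peptide editor H2-DM, helps to exchange its remnant for antigen. Ciita is the coactivator on which transcription of these genes depends. It is recruited by the RFX complex on the X box and by NF-Y on the Y box of their promoters.

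The promoter stretches of 4 measured class II genes are shown because they carry both elements in close spacing. Each runs over the 150 bases before the gene's start, 5′ to 3′ on the gene's strand, from RefSeq on GRCm38.p6: H2-Aa at chr17:34287824-34287973 (minus strand), H2-Eb1 at chr17:34305717-34305866, H2-DMb1 at chr17:34153041-34153190 and H2-Ob at chr17:34238755-34238904 (plus strand). Capitals mark GNAAC, letters within the X box, and GATTGG, letters of the Y box.
H2-Aa: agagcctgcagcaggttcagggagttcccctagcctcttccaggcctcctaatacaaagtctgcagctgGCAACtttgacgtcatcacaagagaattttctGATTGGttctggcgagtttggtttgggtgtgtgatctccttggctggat
H2-Eb1: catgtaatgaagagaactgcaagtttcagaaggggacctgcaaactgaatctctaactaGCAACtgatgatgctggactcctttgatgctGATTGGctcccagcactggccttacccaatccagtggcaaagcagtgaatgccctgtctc
H2-DMb1: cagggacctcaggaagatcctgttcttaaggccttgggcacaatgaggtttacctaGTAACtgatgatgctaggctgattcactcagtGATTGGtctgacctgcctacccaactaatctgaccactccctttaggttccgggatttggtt
H2-Ob: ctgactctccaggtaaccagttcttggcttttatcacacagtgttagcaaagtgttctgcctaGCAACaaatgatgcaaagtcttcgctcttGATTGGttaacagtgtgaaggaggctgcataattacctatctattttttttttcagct
The elements are 27 bases apart in H2-Aa, 26 in H2-Eb1, 27 in H2-DMb1 and 24 in H2-Ob, with no overlap. GATTGG begins 49, 60, 62 and 58 bases before the start. The search was for GNAAC followed after 20 to 30 bases by GATTGG on both strands of windows from 250 bases before to 50 bases after each gene's start. The pair was spelled after these windows had been seen. Of 32851 windows of all genes, 106 held the pair on the gene's strand (0.323%) and 214 on either strand (0.651%), while 5292 held GATTGG (16.1%) and 27873 held GNAAC (84.8%). Neither of the 2 windows of H2-DMa held it, and for Cd74, Ciita and H2-Ea no window was at hand to search. The H2-DMa windows (chr17:34122582-34122881 and chr17:34125268-34125567, plus strand) lie inside the gene's span given above. No window at the first base of that span was at hand. A match is a description of letters and not a measured binding site.

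Values are log2 ratios, sample over reference RNA or tumor over normal gland, and positive means higher in the first. The number of arrays limits the precision, and the files hold no intensities. The 35 reference arrays held 9244 to 9572 values each with array medians of -0.05 to 0.01, and the 38 direct arrays held 7042 to 7934 values with medians of -0.42 to 0.66. The median over all genes on the direct arrays was 0.24 in Brca1 Co/Co;MMTV-cre;p53, 0.36 in C3(1)/SV40, 0.21 in MMTV-myc and 0.18 in MMTV-ras tumors, so means centred on each array's median are given beside the deposited ones for the members there, and the values of single arrays are as deposited. A gene was called when its limma adjusted p, taken over all genes, was under 0.05. No label says that arrays came from separate animals, so p-values measure the spread between these samples. Array 3 of the Brca1 Co/Co;MMTV-cre;p53 tumors stood apart from its group for Cd74 and H2-DMa by Dixon's test, and array 1 of the MMTV-ras tumors had the lowest Cd74 and H2-Aa of all direct arrays without standing apart by that test. Values without them are given beside most of the results they bear on.

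In mammary tumors of C3(1)/SV40 mice all 4 genes were lower than in normal mammary gland. Cd74 was 1.22, 1.59, 1.51 and 1.56 in tumors, against 3.11, 3.41, 3.00 and 2.11 in normal glands. Every tumor array lay below every normal array. The mean was 1.47 ± 0.17 in tumors and 2.91 ± 0.56 in normal glands (SD, n = 4 each), a 2.71-fold fall (-1.44 ± 0.35 on the log2 scale, limma adjusted p = 0.00134). H2-Aa was 2.34, 2.73, 3.42 and 3.76 in tumors, against 5.26, 4.63, 5.17 and 3.89 in normal glands. The groups again did not overlap, and the highest tumor came close to the lowest normal gland. H2-Aa fell 3.19-fold (-1.67 ± 0.37, limma adjusted p = 0.000513), rank 78 from the lowest of 6771 changes, with Cd74 at rank 116. H2-DMa was 0.09, 0.48, 0.02 and 0.02 in tumors, against 0.77, 0.96, 0.80 and 0.36 in normal glands. The groups overlapped through the second tumor and the last normal gland, and the fall was 1.49-fold (-0.57 ± 0.13, limma adjusted p = 0.000459). Ciita was -0.07, -0.40, -0.13 and -0.08 in tumors, against 0.35, 0.32, 0.29 and 0.12 in normal glands. Its groups did not overlap, and it fell 1.36-fold (-0.44 ± 0.08, limma adjusted p = 8.68e-05). Of all genes 36.7% were called in this comparison and 20.1% were called lower, against 4 of 4 here. Of all genes 17.9% had every tumor array below every normal array, against 3 of 4 here. With quantile normalization the fall of H2-Aa was -0.53 and was not called (adjusted p = 0.245).

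Lung tumors of CC10/SV40 mice also held less of all 4 transcripts than normal lung, and here no member overlapped between groups. Cd74 was 0.38, 1.49, 1.68 and 0.72 in tumors, against 3.27, 2.17, 2.92 and 2.86 in normal lungs. Its mean was 1.07 ± 0.62 in tumors and 2.81 ± 0.46 in normal lungs (SD, n = 4 each), a 3.33-fold fall (-1.74 ± 0.35, limma adjusted p = 0.000175) at rank 46 from the lowest of 6774 changes. H2-Aa was 2.81, 2.64, 2.28 and 2.39 in tumors, against 4.90, 3.97, 3.49 and 3.78 in normal lungs. The 4 tumors lay close together, and the fall was 2.85-fold (-1.51 ± 0.37, limma adjusted p = 0.00161), at rank 76. H2-DMa was -0.11, 0.12, -0.02 and -0.08 in tumors, against 1.06, 0.61, 0.63 and 0.93 in normal lungs. All tumors were near the level of the reference RNA, and H2-DMa fell 1.78-fold (-0.83 ± 0.13, limma adjusted p = 3.17e-06). Ciita was -0.23, -0.22, -0.03 and -0.20 in tumors, against 0.15, 0.14, 0.20 and 0.23 in normal lungs. Every tumor was below the reference RNA and every normal lung above it, a 1.27-fold fall (-0.35 ± 0.08, limma adjusted p = 0.00146). Among all genes 36.5% were called, 20.4% were called lower and 18.9% had all tumor arrays below all normal arrays, against 4 of 4 members for each. With quantile normalization the fall of H2-Aa was -0.62 and was not called (adjusted p = 0.162).

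In prostate tumors of TRAMP mice H2-DMa and H2-Aa were lower than in normal prostate, and Cd74 and Ciita did not pass the test. H2-DMa was -0.03, -0.32, -0.16, -0.17 and -0.20 in tumors, against 0.35, 0.27, 0.42 and 0.26 in normal prostates. Every tumor was below 0 and every normal prostate above it, a 1.42-fold fall (-0.50 ± 0.12, limma adjusted p = 0.00049). H2-Aa was 0.82, 0.55, 2.54, 1.74 and 1.55 in tumors, against 2.52, 2.44, 2.45 and 1.72 in normal prostates. The first pair of tumors was far below all other arrays, the third was as high as any normal prostate, and the fall was 1.79-fold (-0.84 ± 0.35, limma adjusted p = 0.0385). Cd74 was -0.99, -1.70, 0.22, 0.04 and 0.77 in tumors, against 0.36, 0.20, 0.83 and 0.27 in normal prostates. The same first pair was lowest and the other tumors overlapped with normal prostate, with a difference of -0.74 ± 0.33 (limma adjusted p = 0.0514). Ciita averaged 0.02 ± 0.07 in tumors (SD, n = 5) and 0.04 ± 0.13 in normal prostates (SD, n = 4), a difference of -0.01 ± 0.08 (limma adjusted p = 0.903). Of all genes 61.4% were called and 32.2% were called lower, so 2 of 4 members called lower is not far from the background. Of all genes 28.6% had all tumor arrays below all normal arrays, and of the members only H2-DMa did. The H2-Aa call was lost without tumor array 1 (-0.69, adjusted p = 0.106), tumor array 2 (-0.62, adjusted p = 0.136) or any of normal arrays 1 to 3 (-0.79 to -0.76, adjusted p = 0.082 to 0.0935), with quantile normalization (-0.25) and with a robust, trended variance (adjusted p = 0.0684). Cd74 passed with array weights (-0.97, adjusted p = 0.00377) or without tumor array 5 (-1.02, adjusted p = 0.00678). It was not called with runs of array numbers as a fixed factor (-0.45, adjusted p = 0.458). With 1 array left out its change was as small as -0.40, with limma adjusted p up to 0.251.

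Seminal vesicle tumors of the same mice differed from the other sites. H2-DMa fell, Cd74 had higher values and H2-Aa did not change beyond its spread. H2-DMa ranged from -0.01 to 0.47 with a median of 0.27 in 6 tumors, against 0.90, 0.57, 0.78 and 0.68 in normal vesicles. All tumors lay below all normal vesicles, a 1.41-fold fall (-0.50 ± 0.11, limma adjusted p = 0.000799). Cd74 ranged from 0.95 to 1.78 with a median of 1.49 in tumors, against 0.79, 0.26, 0.66 and 1.03 in normal vesicles. Only the lowest tumor overlapped with normal tissue, and the difference of 0.76 ± 0.32 missed the threshold (limma adjusted p = 0.0534). H2-Aa ranged from 2.23 to 3.35 with a median of 2.96 in tumors, against 3.54, 2.18, 2.68 and 3.06 in normal vesicles. The groups overlapped over their whole range (-0.06 ± 0.34, limma adjusted p = 0.909). Ciita ranged from -0.22 to -0.02 with a median of -0.13 in tumors, against 0.11, 0.17, -0.02 and -0.02 in normal vesicles, a difference of -0.18 ± 0.08 (limma adjusted p = 0.0526). Among all genes 43.5% were called, 20.2% were called lower and 16.5% had all tumor arrays below all normal arrays, against 1 of 4 members for each. The fall of H2-DMa was not called with quantile normalization (-0.27, adjusted p = 0.0745) or with runs of array numbers as a fixed factor (-0.84, adjusted p = 0.0503). Cd74 passed with quantile normalization (1.04, adjusted p = 0.0123) and with array weights (0.85, adjusted p = 0.0114), and Ciita passed with median centring (-0.21, adjusted p = 0.0224). With the runs as a fixed factor neither was called (Cd74 1.40, adjusted p = 0.277, and Ciita -0.05, adjusted p = 0.893). With 1 array left out Cd74 ran from 0.62 to 0.87, with limma adjusted p up to 0.166.

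**Figure D1:**
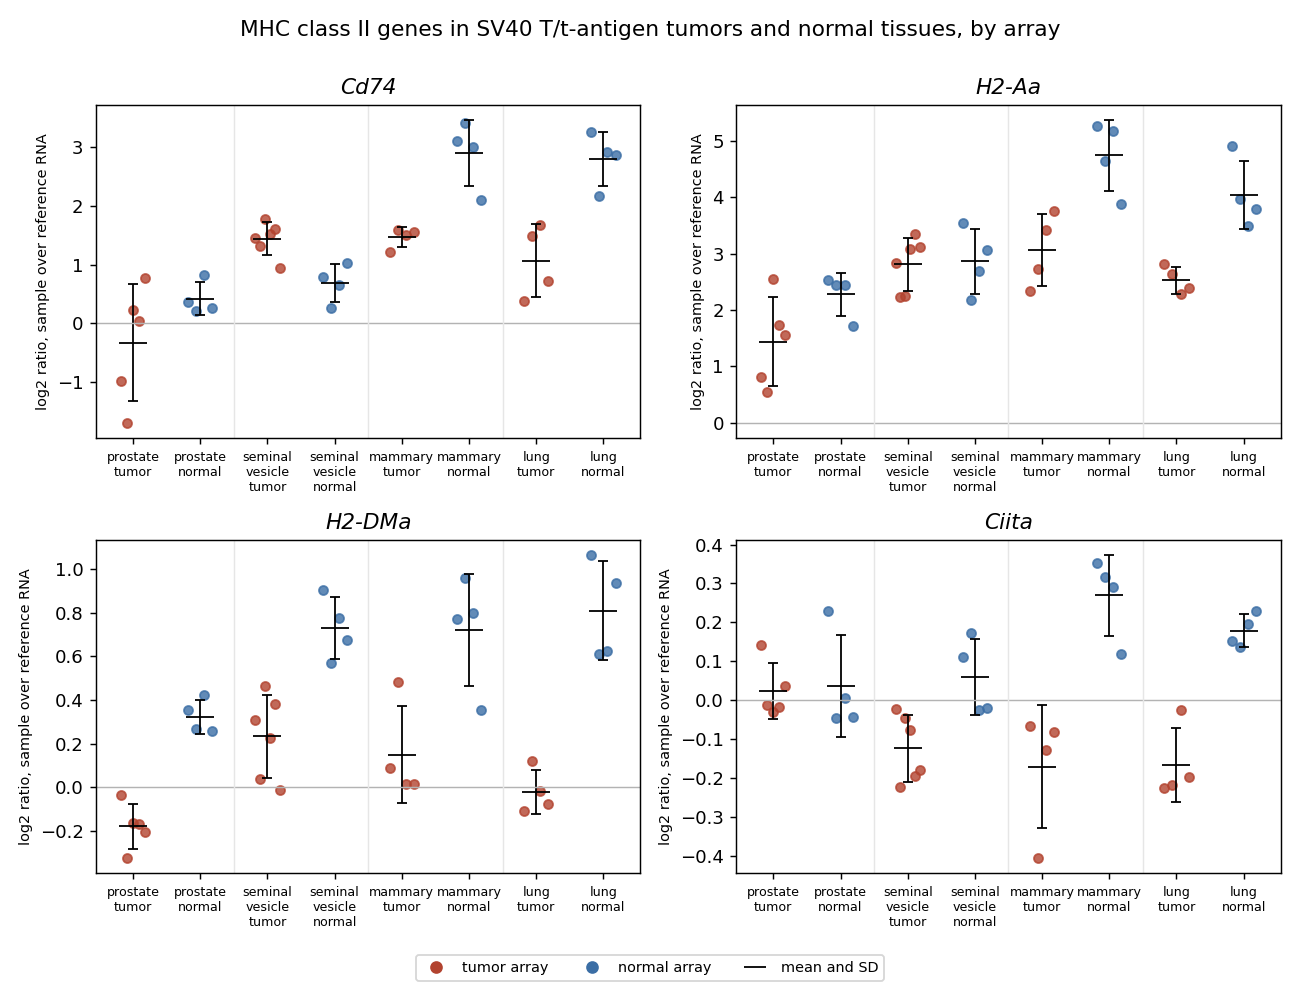
Log2 ratio of sample over reference RNA (y axis) for Cd74, H2-Aa, H2-DMa and Ciita in tumors (red) and normal tissue (blue) of 4 sites, 1 point per array, with mean and SD. Mammary and lung tumors sit below their normal tissue for each gene, Cd74 in seminal vesicle tumors (mean 1.44) sits above normal vesicle (0.69), and 2 of 5 prostate tumors are far below the rest for Cd74 and H2-Aa.

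Array database numbers in the labels fall into runs of neighbouring numbers, which the labels do not call a batch. Within the largest run, which holds both groups of prostate, mammary gland and lung, the mammary changes were -1.73 for Cd74, -2.19 for H2-Aa, -0.65 for H2-DMa and -0.52 for Ciita. The lung changes there were -1.79 for Cd74, -1.14 for H2-Aa, -0.74 for H2-DMa and -0.40 for Ciita. With 3 arrays in each of these 4 groups, all 8 were called, with limma adjusted p-values of 2.94e-06 to 0.0100. Prostate had 1 tumor array in that run, array 5, against 3 normal arrays, so its values there (H2-Aa -0.92, H2-DMa -0.55, Cd74 0.31) have no replicate check. No run held both groups of seminal vesicle, so a run and the group cannot be told apart there.

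The tumor change differed among the 4 sites for Cd74 (moderated F = 11.4, limma adjusted p = 9.53e-05), Ciita (F = 5.26, adjusted p = 0.00777) and H2-Aa (F = 4.37, adjusted p = 0.0168). For H2-DMa, which was lower at every site, no difference among sites was detected (F = 1.62, limma adjusted p = 0.232), though with quantile normalization it was called (F = 3.55, adjusted p = 0.0368). Of all genes 74.1% differed by this test, so 3 of 4 is near the background. Cd74 separated seminal vesicle from the other sites: its change there exceeded that in lung by 2.50 ± 0.47 (limma adjusted p = 0.00012, 35.4% of genes called) and that in mammary gland by 2.19 ± 0.47 (adjusted p = 0.00044, 41.9% called). The change of Cd74 in prostate was lower than in seminal vesicle (-1.50 ± 0.46, limma adjusted p = 0.0076, 46.7% called). H2-Aa differed in the same direction between seminal vesicle and mammary gland (1.62 ± 0.50, limma adjusted p = 0.0102) and lung (1.45 ± 0.50, adjusted p = 0.0242). For Ciita the change in prostate exceeded that in mammary gland by 0.43 ± 0.12 (limma adjusted p = 0.00306, 47.8% of genes called) and that in lung by 0.33 ± 0.12 (adjusted p = 0.0213, 41.2% called). Of 24 such pairs over the 4 members, 7 were called. In the pairs of sites named above 35.4% to 47.8% of all genes were called, so this count is not above the background there. The difference of H2-Aa among sites was not called without normal seminal vesicle array 2 (F = 3.10, adjusted p = 0.0555), with quantile normalization (F = 0.95, adjusted p = 0.462) or with the runs as a fixed factor (F = 1.86, adjusted p = 0.209). With that factor the difference of Ciita was not called either (F = 3.37, adjusted p = 0.0566).

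Across the 8 tissue groups the levels of Cd74 and H2-Aa were highest in normal mammary gland and normal lung. Mean Cd74 ran from 2.91 in normal mammary gland over 2.81 in normal lung, 1.47 in mammary, 1.44 in seminal vesicle and 1.07 in lung tumors to 0.69 in normal seminal vesicle, 0.42 in normal prostate and -0.33 in prostate tumors. Only the step between normal lung and mammary tumors was called among its neighbours (1.34, limma adjusted p = 0.00307, 33.2% of genes called between these groups). Mean H2-Aa ran from 4.74 in normal mammary gland over 4.04 in normal lung, 3.06 in mammary tumors, 2.87 in normal seminal vesicle, 2.81 in seminal vesicle tumors and 2.53 in lung tumors to 2.28 in normal prostate and 1.44 in prostate tumors. The steps below normal lung (0.97, limma adjusted p = 0.0414) and between the prostate groups were called. H2-DMa was highest in normal lung (0.81), normal seminal vesicle (0.73) and normal mammary gland (0.72), which were not told apart, then 0.32 in normal prostate, and 0.24, 0.15, -0.02 and -0.18 in seminal vesicle, mammary, lung and prostate tumors. The step from normal mammary gland to normal prostate was called (0.40, limma adjusted p = 0.00982). Mean Ciita stayed between 0.27 in normal mammary gland and -0.17 in mammary and lung tumors, and no neighbours differed beyond their spread. Of 28 neighbouring steps over the 4 genes, 4 were called. Between the groups of these called steps 33.2%, 45.6% and 61.4% of all genes were called. Neighbours are the groups with the closest means of each gene, so the count has no like share over all genes.

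Between normal tissues, Cd74 was lower in prostate than in mammary gland (-2.49 ± 0.35, limma adjusted p = 5.85e-07, 45.6% of genes called) and lower in seminal vesicle than in mammary gland (-2.22 ± 0.35, adjusted p = 1.98e-06, 60.96% called). H2-Aa was lower by similar amounts in prostate (-2.46 ± 0.37, limma adjusted p = 2.07e-06) and seminal vesicle (-1.87 ± 0.37, adjusted p = 6.28e-05). Against normal lung the same held for Cd74, at -2.39 ± 0.35 in prostate (40.5% of genes called) and -2.12 ± 0.35 in seminal vesicle (57.2% called). These pairs differ in strain as well as in tissue, which cannot be told apart.

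The other class II chains and loading proteins did not all follow the members. Of 11 genes of the list, 7 were measured, among them Cd74, H2-Aa and H2-DMa. In mammary tumors 5 were lower and none higher (median -0.75, all genes -0.02), in prostate tumors 4 lower and 1 higher (median -0.52, all genes -0.03), in lung tumors 4 lower and 1 higher (median -0.32, all genes -0.06) and in seminal vesicle tumors 2 lower and 1 higher (median -0.25, all genes 0.04). H2-Eb1, the beta chain of the E molecule, averaged 0.63 ± 0.24 in mammary tumors and 1.37 ± 0.41 in normal glands (SD, n = 4 each; -0.75 ± 0.23, limma adjusted p = 0.0115). It also fell in prostate (-0.52 ± 0.22, limma adjusted p = 0.042), and in lung (-0.32) and seminal vesicle (-0.35) it was not called. H2-Ob, the beta chain of the H2-DM inhibitor H2-O, which is typical of B cells, averaged 0.13 ± 0.03 in mammary tumors and 1.38 ± 0.22 in normal glands (SD, n = 4 each; -1.25 ± 0.13, limma adjusted p = 5.88e-09). It was -0.21 ± 0.10 in prostate tumors (n = 5) and 0.69 ± 0.16 in normal prostates (SD, n = 4; limma adjusted p = 2.97e-07). H2-DMb1, a partner chain of H2-DMa, fell in seminal vesicle (-0.56 ± 0.08, limma adjusted p = 2.63e-06) and lung (-0.31 ± 0.09, adjusted p = 0.00626), while mammary gland (-0.17) and prostate (-0.17) were not called. H2-Ea, the alpha chain of the E molecule, went the other way: it averaged 0.04 ± 0.36 in lung tumors and -0.92 ± 0.24 in normal lungs (SD, n = 4 each; 0.97 ± 0.16, limma adjusted p = 1.01e-05). It was also higher in prostate tumors (0.72 ± 0.15, limma adjusted p = 0.000101) and seminal vesicle tumors (0.36 ± 0.14, adjusted p = 0.0397). C57BL/6 mice are known to carry an H2-Ea gene that is not expressed. In all 8 tissue groups, those of FVB mice included, its mean was at or below 0.04. Whether this feature reports H2-Ea transcript at any site was not tested, so its higher calls cannot be read as a rise of an expressed chain.

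**Figure D2:**
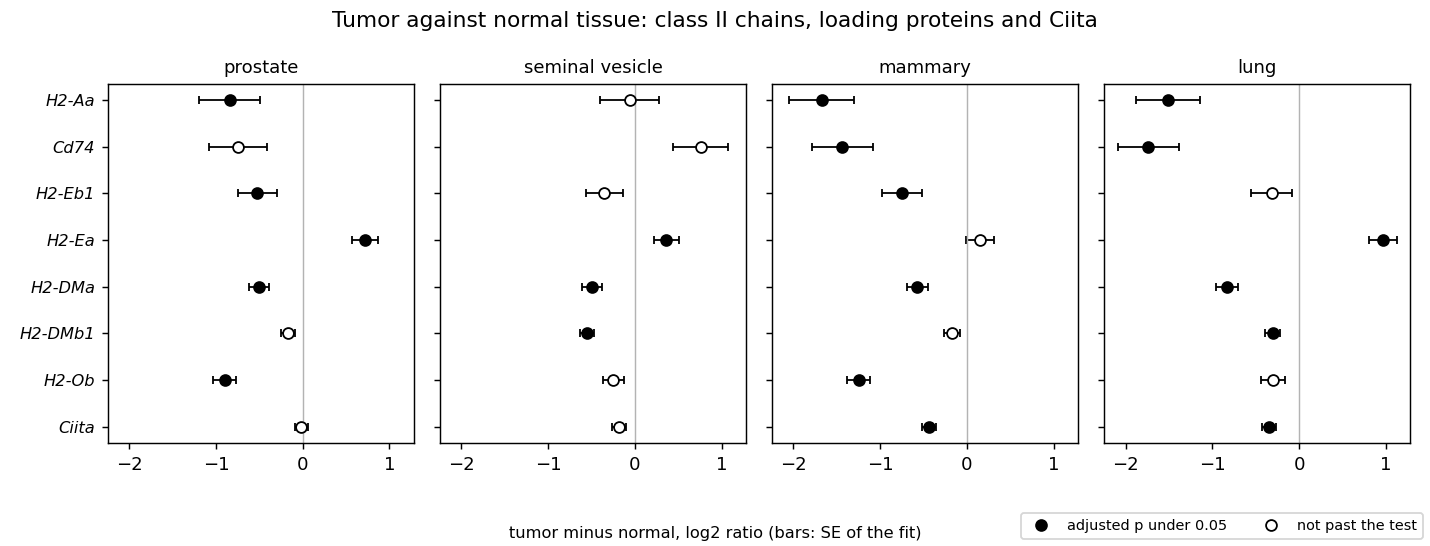
Tumor minus normal log2 ratio (x axis, bars are SE of the fit) for 7 class II chains or loading proteins and Ciita (y axis) in 4 sites, filled where the adjusted p is under 0.05. In mammary gland and lung H2-Aa and Cd74 lie lowest or nearly so, between -1.74 and -1.44, H2-DMa is filled at all 4 sites, and H2-Ea lies above 0 at every site (0.15 to 0.97).

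Of 11 transcription regulators of class II genes, 8 were measured, and their calls went in both directions. In mammary tumors Ciita and Spi1 were lower (Spi1 -0.37 ± 0.12, limma adjusted p = 0.0203) and none was higher (median 0.03, all genes -0.02). In lung tumors Ciita and Spi1 were lower (Spi1 -0.63 ± 0.12, limma adjusted p = 0.000147) and Creb1, which binds next to RFX, was higher (0.25 ± 0.10, adjusted p = 0.044). Spi1 encodes PU.1, a factor of myeloid and B cells. In prostate tumors 4 were higher and none lower: Nfyb, a subunit of NF-Y (0.95 ± 0.13), Creb1 (0.56 ± 0.09), Irf8 (0.47 ± 0.12) and Irf4 (0.34 ± 0.14), the last pair being interferon regulatory factors of immune cells. In seminal vesicle tumors Irf8 was higher (0.34 ± 0.11, limma adjusted p = 0.0132) and Nfya, another NF-Y subunit, lower (-0.34 ± 0.11, adjusted p = 0.0125). Of all genes 36.7% were called in mammary gland, 36.5% in lung, 61.4% in prostate and 43.5% in seminal vesicle. The regulator counts are near or below these shares. The same shares stand beside the counts of the other lists at these sites.

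Endosomal processing genes were mostly called higher in seminal vesicle tumors, where of the members only H2-DMa was called, and lower. Of 13 such genes 11 were measured, and 8 were higher and none lower in seminal vesicle tumors (median 0.75, all genes 0.04), among them the asparaginyl endopeptidase gene Lgmn (1.12 ± 0.15) and Ctss (0.88 ± 0.20), the cathepsin that trims the invariant chain. In mammary tumors 3 were higher and 2 lower (median 0.30), with Ctss at 0.63 ± 0.22 (limma adjusted p = 0.0224) where Cd74 and H2-Aa fell. In lung tumors none was higher and 5 were lower (median -0.40), led by Cst3, an inhibitor of cathepsins (-1.66 ± 0.21, limma adjusted p = 1.70e-07). In prostate tumors 3 were higher and 6 lower (median -0.39), with Lgmn at 1.16 ± 0.15 and Cst3 at -1.16 ± 0.20.

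Pan-leukocyte, T cell and B cell markers moved with the members at the sites where all 4 fell, while dendritic cell markers were called lower in mammary gland and not in lung. Of 10 pan-leukocyte markers 7 were lower and none higher in mammary tumors, where the list averaged -0.27 to 0.17 over tumors and 0.16 to 0.85 over normal glands. In lung tumors 7 were lower and none higher, with list means of -0.70 to -0.44 in tumors and -0.05 to 0.36 in normal lungs. Ptprc, the leukocyte phosphatase CD45, changed by -1.40 in mammary gland (limma adjusted p = 1.83e-07) and -0.96 in lung (adjusted p = 8.07e-05). Of 8 T cell markers 6 were lower and none higher at each of these sites, with Cd8a at -1.06 in mammary gland and -0.62 in lung. Of 9 B cell markers 6 were lower in mammary tumors and 5 in lung tumors, with 1 higher at each, and Cd79b, a chain of the B cell receptor complex, was at -1.47 and -0.83. Of 8 dendritic cell markers 3 were lower and none higher in mammary tumors, led by the chemokine receptor gene Ccr7 (-1.34), with list means of 0.21 to 0.53 in tumors and 0.72 to 0.89 in normal glands. In lung none of these 8 passed in either direction, with list means of 0.05 to 0.15 in tumors and 0.06 to 0.31 in normal lungs. Macrophage markers, 14 in number, moved in lung (6 lower, none higher) and hardly in mammary gland (1 lower, none higher), where the list means were 1.12 to 1.30 in tumors and 1.10 to 1.41 in normal glands. In seminal vesicle tumors 5 macrophage markers were higher and none lower, while 4 pan-leukocyte markers were lower and 2 higher. In prostate tumors 1 macrophage marker was higher and 1 lower, and 2 pan-leukocyte markers were higher and 1 lower.

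Of 15 genes of interferon gamma signalling and its targets 7 were lower and none higher in mammary tumors, 4 lower and 1 higher in lung tumors, 6 lower and 1 higher in prostate tumors and 1 lower and 2 higher in seminal vesicle tumors. Ifngr1, a chain of the interferon gamma receptor, was at -0.99 in mammary gland, -1.05 in lung and -0.77 in prostate. Of 9 class I presentation genes 6 were higher and none lower in seminal vesicle tumors, and 2 were lower and none higher in mammary tumors. Other tissue components moved too: all 11 adipocyte markers were lower in mammary tumors, all 13 skeletal muscle markers and all 10 epithelial markers were lower in prostate tumors, and 8 of 10 epithelial markers were higher in lung tumors. The part of these lists in the changes of the members was not tested. In bulk tissue, fewer cells of a type and less RNA per cell cannot be told apart.

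**Figure D3:**
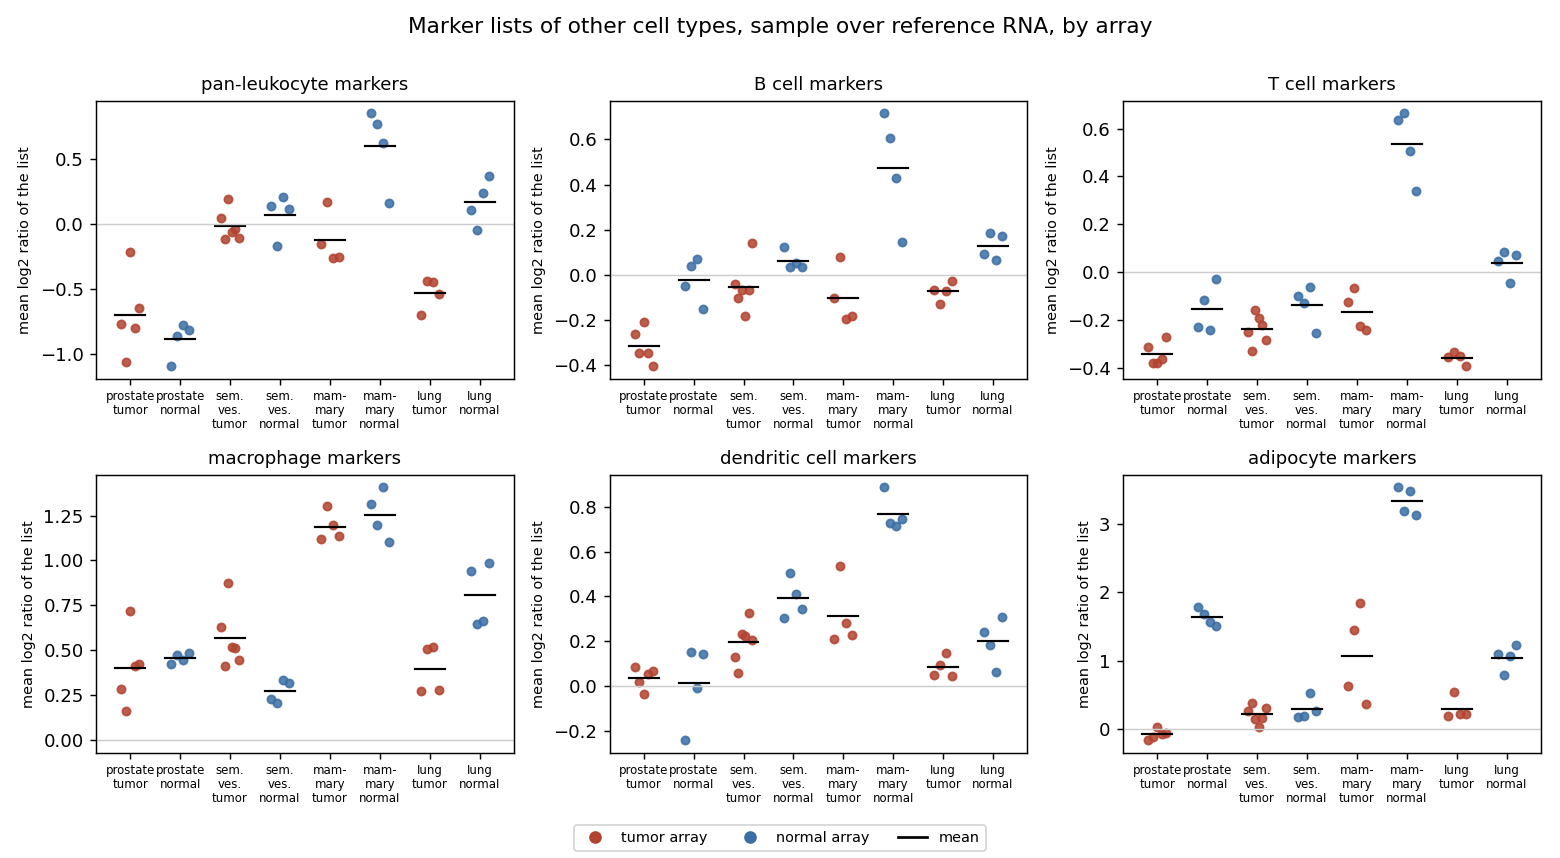
Mean log2 ratio over reference RNA of 6 marker lists (y axis), 1 point per array, in tumors (red) and normal tissue (blue) of 4 sites, with the group mean as a bar. Pan-leukocyte, B cell and T cell markers are lower in mammary and lung tumors than in their normal tissue, whereas macrophage markers overlap between mammary tumors (mean 1.19) and normal gland (1.25).

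Over the 35 reference arrays the gene most like Cd74, among 6736 genes with values on at least 90 percent of them, was Vasp (Pearson r = 0.873), followed by H2-Aa (0.868), Ifngr1 (0.868), Antxr2 (0.867) and Rras (0.862). For H2-Aa they were Cd74, Scp2 (0.840), the complement gene C2 (0.835), Ifngr1 (0.833) and Ms4a4b (0.826). For H2-DMa the first was Klhl6 (0.854), and for Ciita Prnp (0.751) and Cd8a (0.731). Over the direct arrays the genes most like Cd74 were H2-Aa (r = 0.875), C1qc (0.796) and C1qb (0.763), which encode complement C1q and are typical of macrophages, Cd52 (0.757) and Lyz2 (0.740). For H2-Aa there they were Cd74, Tor2a (0.772), Lyz2 (0.718), H2-Eb1 (0.698) and Tyrobp (0.684), and for H2-DMa the first was the Fc receptor gene Fcgr1 (0.860). For Ciita over its 37 direct arrays the first was Gpr182 (0.916). These are descriptions: the arrays share groups, and the direct arrays also share shifts of their medians.

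Against normal mammary gland on the same array, the 8 mammary tumor models gave few calls for the members, and H2-DMa in Brca1 Co/Co;MMTV-cre;p53 tumors was the clearest. It was 0.40, 0.93, 3.55, 1.23 and 0.80 in these 5 tumors. All lay above 0, with array 3 far above the others. The mean was 1.38 ± 1.25 (SD, n = 5), 2.61-fold over normal gland (1.38 ± 0.22 SE, limma adjusted p = 3.50e-06), 1.19 with centring (adjusted p = 5.94e-05) and 0.84 without array 3. In this model 46.9% of genes were called and 26.9% had all arrays above 0, against 1 of 4 members for each. The test against 0 leaves out the spread of normal glands, and the fixed dyes leave a dye bias in place.

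The same 5 tumors spread widely for the invariant chain and the A alpha chain. Cd74 was -1.12, -0.03, 3.40, -0.94 and 0.15, and H2-Aa was -1.95, -0.97, 2.43, -0.71 and -0.13. Array 3 was highest for both and the only one above 0 for H2-Aa, and neither gene was called (Cd74 0.29 ± 0.42, limma adjusted p = 0.594, centred 0.10; H2-Aa -0.27 ± 0.41, centred -0.46). Without array 3 H2-Aa was -0.94 and was called (limma adjusted p = 0.0468). Ciita was 0.04, 0.11, -0.17 and 0.88 on 4 arrays, and its lowest value was on array 3, where the other 3 members were highest. On array 3 the macrophage markers averaged 1.91, against 0.08 to 0.65 on the other 4, and the pan-leukocyte markers 1.23, against 0.00 to 0.38. Its T cell markers averaged -0.19, inside the range of the other 4 arrays (-0.28 to 0.46), and its B cell markers averaged -0.17, below the other 4 (0.06 to 0.68). Whether these markers account for the class II values of array 3 was not tested.

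In p53fp/fp;WAP-cre tumors, of the same strain, H2-DMa went the opposite way. It was -0.66, -0.52, -1.07 and -0.58, all below 0, a 1.63-fold fall (-0.70 ± 0.25, limma adjusted p = 0.034). Of all genes 22.7% were called, against 1 of 4 members, and 23.04% had all arrays below 0, against 2 of 4 members, H2-DMa and Ciita. The call was lost with centring (-0.60, adjusted p = 0.0745), with any of the 4 arrays left out (-0.77 to -0.58, adjusted p = 0.0592 to 0.183), and with runs of array numbers as a random block (-0.70, adjusted p = 0.213). Cd74 was -0.07, 1.67, 1.78 and 0.32, and H2-Aa was -1.21, 1.47, 0.61 and 0.33. Of the 4 tumors 3 were above 0 for each and neither was called (Cd74 0.93 ± 0.45, limma adjusted p = 0.159). Cd74 passed without Brca1 array 3 and MMTV-ras array 1, which are of other models (0.93, adjusted p = 0.0445).

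H2-Aa was lower than in normal gland in the MMTV-ras and MMTV-PyMT tumors. In MMTV-ras tumors it was -3.08, -1.14, -0.38, -2.10 and -0.60, and Cd74 was -3.12, -0.23, -0.32, -1.78 and -0.10. All tumors were below 0 for both genes, with arrays 1 and 4 lowest for both. H2-Aa fell 2.75-fold (-1.46 ± 0.41, limma adjusted p = 0.00978; centred -1.64, adjusted p = 0.00611), and Cd74 was at -1.11 ± 0.42 (adjusted p = 0.0563), and was called with centring (-1.29, adjusted p = 0.0331) and without array 3 of the Brca1 Co/Co;MMTV-cre;p53 tumors (adjusted p = 0.0181). Of all genes 20.2% were called in this model and 3.33% had all arrays below 0, against 1 and 2 of 4 members. The H2-Aa call was lost without array 1 (-1.06, adjusted p = 0.0817) or array 4 (-1.30, adjusted p = 0.0524). For Cd74, leaving out 1 array gave -1.36 to -0.61, the last without array 1, with limma adjusted p up to 0.338. On array 1 the macrophage markers averaged -0.34, against 0.12 to 0.61 on the other 4.

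In MMTV-PyMT tumors H2-Aa was -1.84, -1.41, -0.49, -1.20 and -0.78, all below 0. The fall was 2.21-fold (-1.14 ± 0.41, limma adjusted p = 0.0403; centred -1.11, adjusted p = 0.0457), and 21.2% of genes were called and 19.04% had all arrays below 0, against 1 of 4 members for each. Cd74 was between -0.93 and 0.02 and was not called (-0.47 ± 0.42). The H2-Aa call was lost without array 1, 2, 4 or 5 (-1.23 to -0.97, adjusted p = 0.0691 to 0.162), with the runs as a random block (adjusted p = 0.0827) and with a robust, trended variance (adjusted p = 0.0542).

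In C3(1)/SV40 tumors on the direct arrays Ciita was higher than in normal gland, unlike the same model on the reference arrays. Ciita was 0.06, 1.51, 0.87, 0.44 and 1.29, all above 0, a 1.78-fold rise (0.83 ± 0.18, limma adjusted p = 0.000294). With centring, which lowers this model by its median shift, the rise was 0.50 (adjusted p = 0.00643) and array 1 was below 0. Of all genes 46.2% were called and 36.9% had all arrays above 0, against 1 of 4 members for each. H2-Aa was -0.53, -0.93, -2.08, -0.82 and -0.28, all below 0 where 5.36% of genes were, and missed the threshold (-0.93 ± 0.41, limma adjusted p = 0.0597; centred -1.26, adjusted p = 0.0176). Cd74 was 0.16, 0.52, -1.09, -0.33 and 0.82, on both sides of 0 (0.02 ± 0.42, centred -0.32). On the reference arrays the same model gave falls of H2-Aa, Cd74 and Ciita. The difference between the array sets was not tested, since their designs and dyes differ.

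In the 3 remaining models no member was called as deposited. In MMTV-her2/neu tumors H2-Aa was -1.42, -1.05, -0.65, -0.60 and -1.17, all below 0 as were 26.2% of genes (-0.98 ± 0.41, limma adjusted p = 0.0891), while 17.5% of genes were called. It passed without array 3 of the Brca1 Co/Co;MMTV-cre;p53 tumors (adjusted p = 0.045). In p53-/-;transplant tumors H2-DMa was -0.99, -0.71, -0.47, -0.59 and -0.17, all below 0 as were 20.5% of genes (-0.58 ± 0.22, limma adjusted p = 0.0695), and 14.4% of genes were called. Without that Brca1 array, which enters the shared variance, it was called (-0.58, adjusted p = 0.00177). In MMTV-myc tumors, with 23.5% of genes called, H2-Aa was 0.68, 0.30, -1.65 and 0.63, with array 3 far below the others, and Cd74 was lowest on array 3 too (-0.38, 0.40, -1.06 and 0.27). The means in this model were -0.01 for H2-Aa (centred -0.23) and -0.19 for Cd74 (centred -0.41), and no member was called with centring either.

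**Figure D4:**
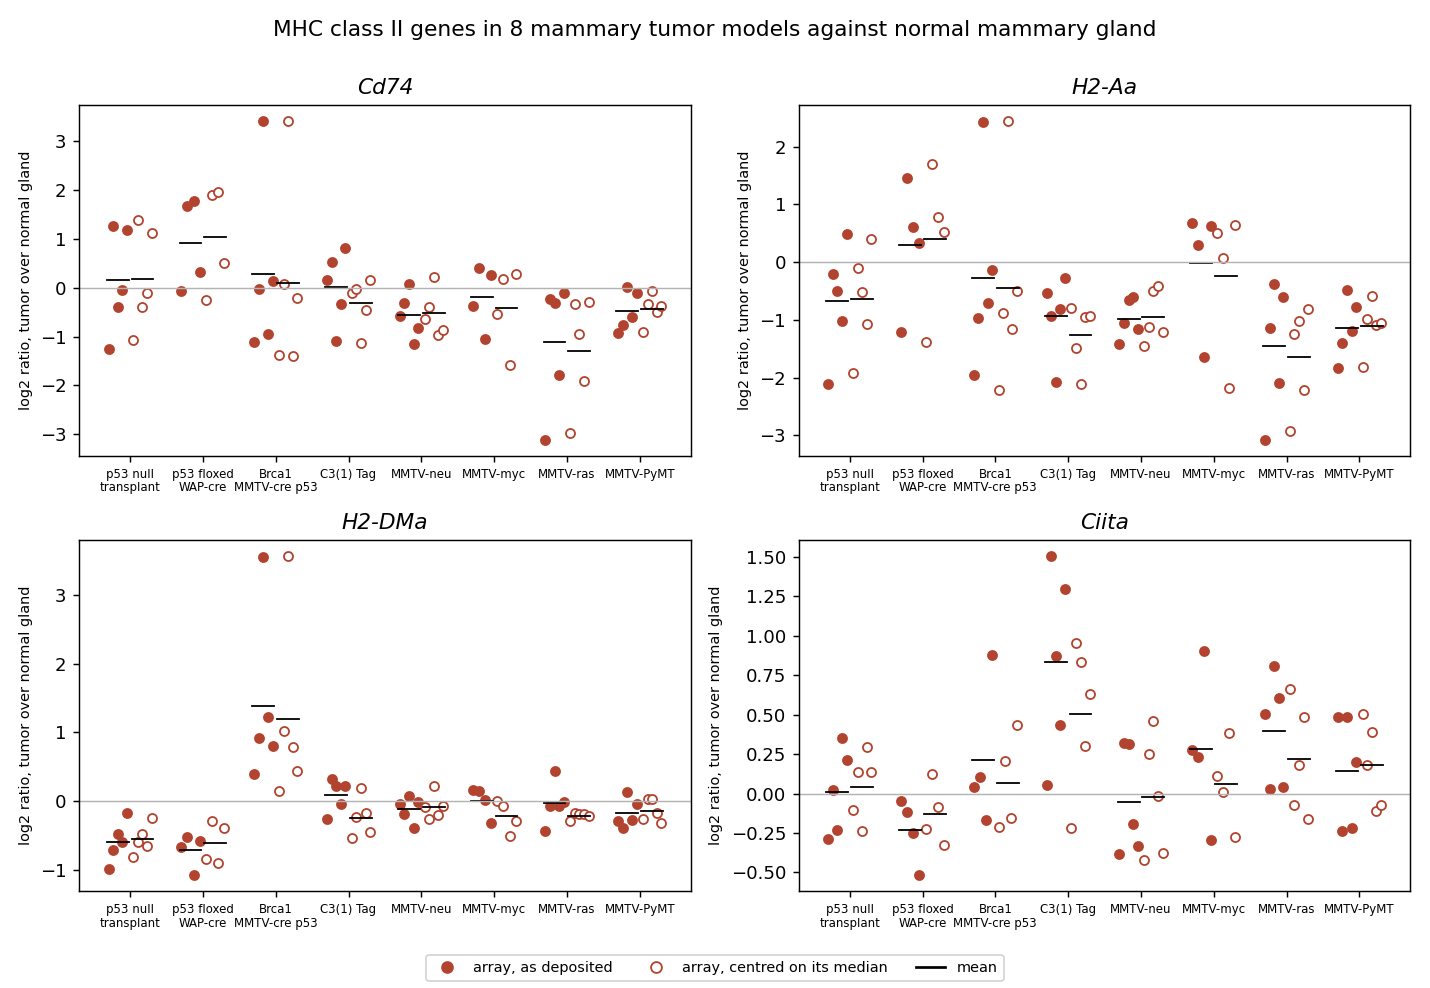
Log2 ratio of tumor over normal mammary gland (y axis) for Cd74, H2-Aa, H2-DMa and Ciita in 8 models, 1 point per array as deposited (filled) and centred on the array's median (open), with means as bars. H2-DMa is above 0 on all Brca1 Co/Co;MMTV-cre;p53 arrays, whose array 3 is at 3.55. H2-Aa is below 0 on all MMTV-ras, MMTV-PyMT, MMTV-her2/neu and C3(1)/SV40 arrays, and Ciita is highest in C3(1)/SV40 tumors.

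The ratio differed among the 8 models for H2-DMa (moderated F = 7.99, limma adjusted p = 0.000146) and Ciita (F = 3.04, adjusted p = 0.0332), and was not called for Cd74 (F = 1.96, adjusted p = 0.14) or H2-Aa (F = 1.95, adjusted p = 0.142). Of all genes 43.00% differed, so 2 of 4 is near the background. The difference of Ciita was not called with centring (F = 1.58, adjusted p = 0.242), quantile normalization (F = 1.11, adjusted p = 0.441) or the runs as a random block (F = 2.88, adjusted p = 0.0531), nor was it without array 2 of the C3(1)/SV40 tumors (F = 2.17, adjusted p = 0.117), without their array 5 (F = 2.26, adjusted p = 0.105) or array 3 (F = 2.59, adjusted p = 0.0576), or without array 3 (F = 2.77, adjusted p = 0.0518) or array 4 (F = 2.64, adjusted p = 0.0608) of the p53fp/fp;WAP-cre tumors. Cd74 was called without array 3 of the Brca1 Co/Co;MMTV-cre;p53 tumors (F = 2.76, adjusted p = 0.0473).

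H2-DMa in Brca1 Co/Co;MMTV-cre;p53 tumors exceeded each of the other 7 models, as deposited and with centring. The difference, Brca1 model minus the other, was 1.28 ± 0.31 against C3(1)/SV40 (limma adjusted p = 0.00394), 1.37 ± 0.33 against MMTV-myc (adjusted p = 0.00475), 1.41 ± 0.31 against MMTV-ras, 1.49 ± 0.31 against MMTV-her2/neu and 1.55 ± 0.31 against MMTV-PyMT. Taken the other way round, p53-/-;transplant minus the Brca1 model was -1.97 ± 0.31 (limma adjusted p = 4.5e-05) and p53fp/fp;WAP-cre minus it was -2.09 ± 0.33 (adjusted p = 9.5e-05). These sizes rest in part on array 3: without it the differences were 0.74 ± 0.20 against C3(1)/SV40 (limma adjusted p = 0.0125), 0.83 against MMTV-myc, 0.87 against MMTV-ras, 0.95 against MMTV-her2/neu and 1.01 against MMTV-PyMT, and -1.42 for p53-/-;transplant and -1.54 for p53fp/fp;WAP-cre minus the Brca1 model. All 7 were still called, and with centring as well (limma adjusted p at most 0.00412). The share of all genes called in these 7 pairs was 17.3% against p53-/-;transplant, 12.6% against p53fp/fp;WAP-cre, 15.8% against C3(1)/SV40, 22.2% against MMTV-her2/neu, 11.03% against MMTV-myc, 10.8% against MMTV-ras and 20.2% against MMTV-PyMT. Cd74 was higher in p53fp/fp;WAP-cre than in MMTV-ras tumors (2.04 ± 0.63, limma adjusted p = 0.0485; centred 2.32, adjusted p = 0.0239), a pair in which 5.60% of genes were called. In the same pair H2-Aa was called with centring (2.04, adjusted p = 0.0417) and not as deposited (1.76, adjusted p = 0.0766). Both differences rest in part on MMTV-ras array 1, the lowest for both genes, and no value of this pair without it is given. Ciita in C3(1)/SV40 tumors differed as deposited from p53-/-;transplant (limma adjusted p = 0.0172), p53fp/fp;WAP-cre (adjusted p = 0.00464) and MMTV-her2/neu tumors (adjusted p = 0.0139), and with centring from none of them (adjusted p = 0.0529 to 0.121).

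Within groups, Cd74 and H2-Aa varied together from array to array. On centred values, as deviations from the model mean, their Pearson r over the 38 direct arrays was 0.89 and Spearman rho 0.82 (permutation p within groups 1e-05, the smallest that 100000 permutations can give, 0.00012 adjusted over 12 relations). Without Brca1 array 3 and MMTV-ras array 1, the most distant for Cd74, r was 0.83. Over the 35 reference arrays r was 0.48 (permutation p = 0.0205, adjusted 0.0493) and rho 0.44 (permutation p = 0.0194, adjusted 0.0582), with r = 0.43 without prostate tumor arrays 2 and 5. Cd74 and H2-DMa had r = 0.51 and rho = 0.58 there (permutation p = 0.00039 and 0.00025, adjusted 0.00234 and 0.0015; r = 0.58 without the same pair of arrays). On the direct arrays Cd74 and H2-DMa had r = 0.67 (permutation p = 0.0146, adjusted 0.0437) and rho = 0.36 (adjusted 0.114), and r dropped to 0.44 without the 2 most distant arrays, so the relation rests partly on them. H2-Aa and H2-DMa had r = 0.67 and rho = 0.49 on the direct arrays (permutation p = 0.00269 and 0.00755, adjusted 0.0108 and 0.0302; r = 0.48 without Brca1 array 3 and MMTV-myc array 3), and r = 0.28 on the reference arrays (permutation p = 0.174, adjusted 0.304). No relation of Ciita with the other 3 passed the threshold, with r between -0.23 and 0.13 in 6 relations.

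**Figure D5:**
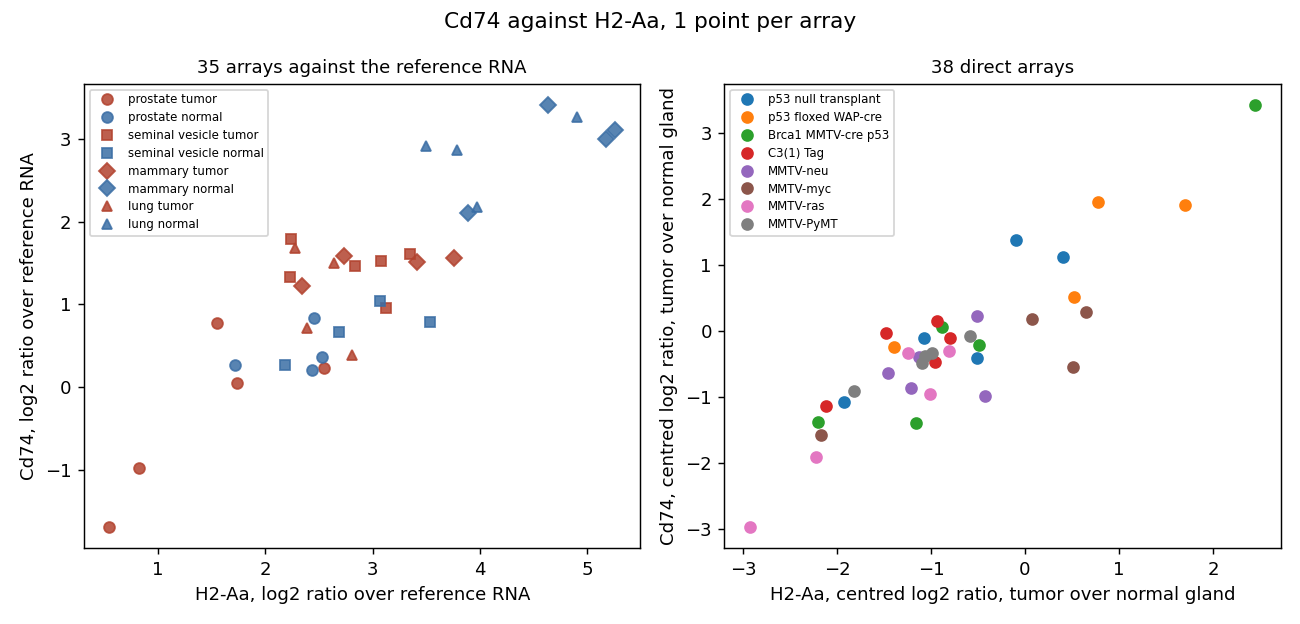
Cd74 against H2-Aa, both as log2 ratios, 1 point per array: over reference RNA in 35 tissue arrays (left) and, centred on each array's median, tumor over normal gland in 38 direct arrays (right). The points rise together in both sets, within groups with r = 0.48 on the left and 0.89 on the right, and 1 Brca1 Co/Co;MMTV-cre;p53 array and 1 MMTV-ras array mark the ends on the right.

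Among the other class II genes on the direct arrays, H2-Eb1 was higher than in normal gland in the C57BL6/129sv models. It was 0.21, 1.87, 3.84, 0.56 and 1.82 in Brca1 Co/Co;MMTV-cre;p53 tumors (1.66 ± 0.28, limma adjusted p = 1.13e-05; centred 1.47; 1.11 without Brca1 array 3 and MMTV-ras array 1, adjusted p = 0.000566). In p53fp/fp;WAP-cre tumors it was 0.61, 2.82, 1.22 and 2.07, all above 0 (1.68 ± 0.32, limma adjusted p = 0.000131). In the other 6 models its mean lay between -0.22 and 0.12 and was not called. No other models share that strain, so strain and model cannot be told apart. H2-Ob was lower in p53-/-;transplant (-1.19 ± 0.22, limma adjusted p = 0.000147), p53fp/fp;WAP-cre (-1.18 ± 0.25, adjusted p = 0.0005), MMTV-PyMT (-0.74 ± 0.22, adjusted p = 0.0144) and Brca1 Co/Co;MMTV-cre;p53 tumors (-0.52 ± 0.22, adjusted p = 0.0493). With centring H2-Ob was called lower in all models but MMTV-ras. H2-DMb1 was called only in Brca1 Co/Co;MMTV-cre;p53 tumors (0.57 ± 0.17, limma adjusted p = 0.00456; centred 0.38, adjusted p = 0.0343), and not without the same pair of arrays (0.32, adjusted p = 0.0845). Of the 7 measured chains and loading proteins 4 were higher and 1 lower in that model (median 0.57, all genes 0.24), 2 higher and 1 lower without that pair of arrays, and in the other 7 models at most 1 was higher and 2 were lower.

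Of the 8 regulators 3 were higher and none lower in Brca1 Co/Co;MMTV-cre;p53 tumors, where 34.9% of all genes were called higher, and 3 higher and none lower in C3(1)/SV40 tumors, where 41.8% were, so both counts are near the background. In Brca1 Co/Co;MMTV-cre;p53 tumors these were Nfya (0.74 ± 0.18, centred 0.55), Spi1 (0.63 ± 0.17, centred 0.44) and Creb1 (0.46 ± 0.15, centred 0.27), all called with centring too. In C3(1)/SV40 tumors they were Nfyb (0.59 ± 0.16), Rfxank, a subunit of RFX (0.47 ± 0.17), and Ciita, of which only Ciita was called with centring. In MMTV-ras tumors Irf8 was higher (0.52 ± 0.19, limma adjusted p = 0.0477), and not with centring (0.34, adjusted p = 0.11), and in the other 5 models no regulator was called.

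Of 9 endosomal processing genes on the direct arrays 5 were higher in p53fp/fp;WAP-cre tumors, where 11.5% of all genes were called higher, and 1 to 4 in the other 7 models, with none lower as deposited. Ctsd, an endosomal aspartic protease, was higher in all 8 models, from 1.06 ± 0.29 in MMTV-ras to 2.21 ± 0.32 in p53fp/fp;WAP-cre tumors. Ctss was higher in p53fp/fp;WAP-cre (1.87 ± 0.40), Brca1 Co/Co;MMTV-cre;p53 (1.40 ± 0.35) and MMTV-myc tumors (1.11 ± 0.40). These values are as deposited.

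Macrophage markers were called higher in 3 models whose members did not move alike. Of 14, 10 were higher and 2 lower in Brca1 Co/Co;MMTV-cre;p53 tumors, with H2-DMa higher, 9 and 2 with centring, and 6 and 2 without Brca1 array 3 and MMTV-ras array 1. In p53fp/fp;WAP-cre tumors, with H2-DMa lower, 7 were higher and 1 lower. In C3(1)/SV40 tumors, with Ciita higher and H2-Aa below 0 on every array, 7 were higher and 1 lower, near the share of all genes, and 4 and 1 with centring. In the other 5 models 0 to 3 were higher and 0 or 1 lower. Of 10 pan-leukocyte markers 4 were higher and none lower in Brca1 Co/Co;MMTV-cre;p53 tumors (3 and none with centring). The deposited count is near the 34.9% of all genes called higher in that model. In MMTV-PyMT tumors 3 pan-leukocyte markers were lower and none higher. Adipocyte markers were lower in every model, 8 to 11 of 11 with none higher, and skeletal muscle markers in every model, 9 to 13 of 13 with none higher. The part of the macrophage, fat and muscle markers in the ratios of the members was not tested.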

How the data were processed

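Total RNA of 73 samples was hybridised to 2-colour cDNA arrays, 35 against a common reference RNA (Cy3 sample, Cy5 reference) and 38 as tumor (Cy5) against normal mammary gland (Cy3), per the labels. The authors deposited log2 ratios. Their background correction, normalization and filters are not given in the sources used here. The base was checked by the study's own rule (p under 0.001, 2-fold), which gave 2638 of 9573 features read as log2, 3770 as natural log and 4174 as log10, and the series text gives the first of these. The direction of the reference arrays was checked with markers: adipocyte markers averaged 3.33 in normal mammary gland. The deposited values were used without further normalization. Of 9596 features 7486 had 1 symbol in the platform table, 483 had several and 1627 none, and the last pair was left out. Features of a gene were averaged. Groups came from the labels, and linear models with 1 mean per group were fitted with limma 3.58.1 in R 4.3.3, over all genes with at least 3 values per group and separately for the 2 array sets, with Benjamini-Hochberg adjustment and a threshold of 0.05. Direct arrays were tested against 0. In simulated data with 200 genes changed 2-fold, 193 were recovered for lung (13 false calls, 6236 genes) and 179 for MMTV-ras (8 false calls, 2391 genes). Runs of array numbers were split at gaps over 10. Relations used permutations within groups. Genes named beside the members came from the class II chain, regulator and endosomal processing lists, from up to 3 called genes of lowest p in each other list, and from the 5 genes most like each member (Pearson r, genes with values on at least 90 percent of arrays). The members, the gene lists and these rules were chosen with earlier results of these data known. Alternatives tried were median centring, quantile normalization, array weights, a robust and trended variance, features without missing values, features fitted singly, the runs as a fixed or random block, the largest run alone, the replicate number as a block, leaving out each array and, chosen after seeing the data, leaving out array 3 of the Brca1 model and array 1 of the MMTV-ras model.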

Additional observations from a re-analysis of the deposited data

Results flagged for a closer look

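Of 64 pairs of a member and a group with 4 to 6 arrays, 6 held 1 array far from the others by Dixon's test, where chance gives about 1 in 20. In Brca1 Co/Co;MMTV-cre;p53 tumors array 3 was highest for Cd74 at 3.40, against -1.12 to 0.15 on the other 4, and for H2-DMa at 3.55, against 0.40 to 1.23. In MMTV-myc tumors array 3 was lowest for H2-Aa at -1.65, against 0.30 to 0.68. In mammary tumors array 2 was highest for H2-DMa at 0.48, against 0.02 to 0.09. In lung tumors array 3 was highest for Ciita at -0.025, against -0.23 to -0.20. In normal prostate array 4 was lowest for H2-Aa at 1.72, against 2.44 to 2.52.

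The tumor change differed among the 4 sites by the moderated F test of limma for Cd74 (F = 11.4), Ciita (F = 5.26) and H2-Aa (F = 4.37). The ratio differed among the 8 models for H2-DMa (F = 7.99) and Ciita (F = 3.04).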

How the results depend on the processing

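Changes are given as the number of the 4 members called. As reported these were 2 in prostate, 1 in seminal vesicle, 4 in mammary gland, 4 in lung, 3 among sites, 4 of 28 neighbouring steps, 1 each in p53fp/fp;WAP-cre, Brca1 Co/Co;MMTV-cre;p53, C3(1)/SV40, MMTV-ras and MMTV-PyMT, 0 in the other 3 models and 2 among models. No member changed direction while called. Counts that moved by over 1.5 times are given next. Median centring gave 2 in seminal vesicle, 0 in p53fp/fp;WAP-cre, 2 in C3(1)/SV40, 2 in MMTV-ras and 1 among models. Quantile normalization, beside 3 each in mammary gland and lung, where H2-Aa lost its call, and 3 among models, gave 1 in prostate, 1 in p53-/-;transplant, 2 in C3(1)/SV40, 1 in MMTV-her2/neu and 2 in MMTV-ras. Array weights gave 3 in seminal vesicle, 1 in p53-/-;transplant, 2 in MMTV-her2/neu and 4 among models. Runs as a fixed factor gave 0 in seminal vesicle and 1 among sites. Runs as a random block gave 0 in p53fp/fp;WAP-cre, 0 in MMTV-PyMT and 1 among models. A robust, trended variance gave 1 in prostate, 2 neighbouring steps and 0 in MMTV-PyMT. Features without missing values gave 0 in C3(1)/SV40 and 1 among models, because Ciita, which lacks 1 value, was not tested there. Without Brca1 array 3 and MMTV-ras array 1 the counts were 1 in p53-/-;transplant, 2 in p53fp/fp;WAP-cre, 2 in Brca1 Co/Co;MMTV-cre;p53, 2 in C3(1)/SV40 and 1 in MMTV-her2/neu, and centred without Brca1 array 3 they were the same with 2 in MMTV-ras. The cause of the other moves was not tested.

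The replicate block gave 2 each in p53-/-;transplant, C3(1)/SV40, MMTV-her2/neu, MMTV-ras and MMTV-PyMT. The samples share only a number: 15 of 113 same-numbered pairs of reference arrays and 26 of 127 of direct arrays had residuals correlated over 0.1. With 1 array left out the counts ran from 1 to 3 in prostate, 1 to 3 in seminal vesicle, 4 to 4 in mammary gland and in lung, 2 to 3 among sites, 3 to 5 neighbouring steps, 0 to 1 in p53-/-;transplant, p53fp/fp;WAP-cre, MMTV-her2/neu and MMTV-PyMT, 1 to 2 in Brca1 Co/Co;MMTV-cre;p53 and C3(1)/SV40, 0 to 0 in MMTV-myc, 0 to 2 in MMTV-ras and 1 to 3 among models. Over all genes, centring moved the share of higher calls to 53.5% against 90.6% in C3(1)/SV40, 52.97% against 88.4% in MMTV-myc, 52.8% against 85.2% in MMTV-ras, 55.3% against 74.3% in Brca1 Co/Co;MMTV-cre;p53 and 61.9% against 50.5% in p53fp/fp;WAP-cre. Genes called in seminal vesicle numbered 1628 with quantile normalization and 884 with runs as a fixed factor, against 2941. The deposited ratios carry no intensities, so signal over background could not be weighed.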
